A study of Homo sapiens with 8 samples.

Results

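The genes described here build the first stations of the secretory pathway: the SEC61 translocon, the signal recognition particle and its receptor, signal peptidase, the COPII and COPI vesicle coats, and the receptors that load cargo into those vesicles. They were chosen by name as 49 of the 59385 gene symbols of the count table, and all 49 were among the 16228 genes with enough counts to be tested. The table came from polysome profiling followed by RNA sequencing of IHCF, a line of immortalized human cardiac fibroblasts. Knockdown cells carried a lentiviral short hairpin RNA against EIF4G2, a relative of the translation initiation factor eIF4G, and scramble cells carried a lentiviral hairpin with no target. Both kinds of cell were starved of serum (at least 6 h) before 24 h with TGFb, a cytokine that activates fibroblasts, so no group was free of TGFb. RNA bound to polysomes and total RNA were sequenced from each kind of cell, which gave 2 libraries each of knockdown polysomes, scramble polysomes, knockdown total RNA and scramble total RNA. The number of hairpin sequences, any selection of infected cells and the way polysomes were isolated are details that the sources used here do not give.

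A protein bound for secretion starts on a free ribosome. The signal recognition particle binds its signal peptide, pauses the ribosome and hands it to the receptor on the endoplasmic reticulum (ER), where the chain threads through the SEC61 channel and signal peptidase removes the signal. COPII-coated vesicles then carry folded cargo from the ER to the Golgi, and COPI-coated vesicles carry escaped ER proteins back. Activated fibroblasts depend on this route, since procollagens and fibronectin leave the cell through it.

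Total counts per library ran from 18043714 to 24590030, and the 49 genes together took 0.937% to 1.03% of them in every library. EIF4G2 itself had 244 and 335 CPM (counts scaled by library total and TMM factor) in knockdown polysomes, against 875 and 877 CPM in scramble polysomes, and 293 and 327 CPM in knockdown total RNA, against 794 and 785 CPM in scramble total RNA. That left 33.0% of its polysomal and 39.3% of its total RNA level (edgeR quasi-likelihood test, adjusted p = 0.0276 and 0.0504). Summed fibroblast markers stood at 6607 to 7442 CPM in all libraries, although DCN and FAP stayed at 0 to 0.434 CPM. The sum hid opposite differences between fractions. COL1A1 had 885 to 1458 CPM in polysome libraries and 3773 to 4171 CPM in total RNA libraries. VIM had 4170 to 5751 CPM in polysome libraries and 1093 to 1565 CPM in total RNA libraries. Libraries differed in makeup as well as in label. Counts sat on transcripts of a median length of 1603 to 1777 nt in polysome libraries and 2748 to 3091 nt in total RNA libraries. The lowest total RNA value was that of knockdown replicate 1. Genes of the mitochondrial genome took 14.5% to 17.5% of polysome counts except in scramble replicate 1, where they took 7.12%. In total RNA libraries they took 3.88% to 4.21%, less than in any polysome library. The labels call the 2 libraries of a group biological replicates without naming separate cultures, so p-values cover only library-to-library spread, possibly technical.

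Per length of transcript, these genes covered a wide range of levels, given here in TPM, which divides counts by transcript length and scales each library to one sum. In total RNA the highest was ARF1, the GTPase that recruits the COPI coat, at 705 and 679.8 TPM in knockdown and 661 and 671 TPM in scramble cells. TMED9, a p24-family cargo receptor, followed at 623 and 569 TPM in knockdown and 595 and 595 TPM in scramble cells. SRP14, which with SRP9 forms the part of the signal recognition particle that pauses the ribosome, had 537 and 501 TPM in knockdown and 504 and 496 TPM in scramble cells. The values of ARF1 lay above those of TMED9 in every total RNA library, and TMED9 lay above SRP14 in every one. The least abundant in total RNA were SRP19 and SEC24A, with means of 14.6 to 22.4 TPM over both genes and both kinds of cell. In polysomal RNA the order was another one: SEC61B had 745 and 906 TPM in knockdown and 1141 and 855 TPM in scramble cells, and SEC61G had 917 and 753 TPM in knockdown and 1046 and 636 TPM in scramble cells. These 2 small subunits overlapped each other, so their order cannot be read.

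The 2 shortest reading frames of the set are shown because coding length is the feature that went furthest with the polysome values below. SEC61G (chr7:54752250-54759974, minus strand, GRCh38) encodes the gamma subunit of the translocon, a single-span membrane protein, and SRP9 (chr1:225777813-225790466, plus strand) is the partner of SRP14. Their spliced reading frames, from the GENCODE v29 transcripts, are 207 and 261 nt long with the stop codon, and capitals mark the start and stop codons.
SEC61G: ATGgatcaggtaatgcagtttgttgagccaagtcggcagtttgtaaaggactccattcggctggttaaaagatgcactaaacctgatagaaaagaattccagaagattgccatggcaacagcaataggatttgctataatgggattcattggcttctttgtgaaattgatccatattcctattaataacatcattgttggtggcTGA
SRP9: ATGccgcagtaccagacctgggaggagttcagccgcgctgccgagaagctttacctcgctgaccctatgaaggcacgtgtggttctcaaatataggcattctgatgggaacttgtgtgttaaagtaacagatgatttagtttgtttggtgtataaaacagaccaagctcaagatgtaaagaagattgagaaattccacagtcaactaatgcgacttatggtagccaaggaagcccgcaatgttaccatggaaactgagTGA

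The first comparison asked how far the mRNA of each gene sat in polysomes relative to the total RNA of the same cells. Most of these genes stood higher in polysomal RNA, and a smaller set of long coat subunits stood lower. In knockdown cells 28 of the 49 rose and 11 fell, against 28.9% and 34.1% of all tested genes (edgeR quasi-likelihood test on all 8 libraries, Benjamini-Hochberg adjusted p under 0.05 over all tested genes). In scramble cells 28 rose and 10 fell, against 29.7% and 33.7% of all tested genes. These shares are the background for the counts of each role group below. Between the 2 kinds of cell, 27 genes rose in both, 10 fell in both, 9 passed in neither and none moved in opposite directions. The median log2 fold change of the 49 was 0.85 in knockdown and 0.75 in scramble cells, and the median over all tested genes was -0.16 and -0.17. The zero of this scale rests on TMM. With library totals alone the calls were 14 higher and 23 lower in knockdown cells and 15 higher and 22 lower in scramble cells. The median of the 49 was then -0.22 and -0.25, and that of all genes was -1.22 and -1.16. On that scale 12 of the 49 changed sign in knockdown and 14 in scramble cells. The called genes among them were ARF1, COPZ1, KDELR2, TMED2 and TRAM1 in both kinds of cell, SEC62 and TMED9 in knockdown cells alone, and SRP68, SSR1 and TMED10 in scramble cells alone, all called higher with TMM and below 0 without it.

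**Figure D1:**
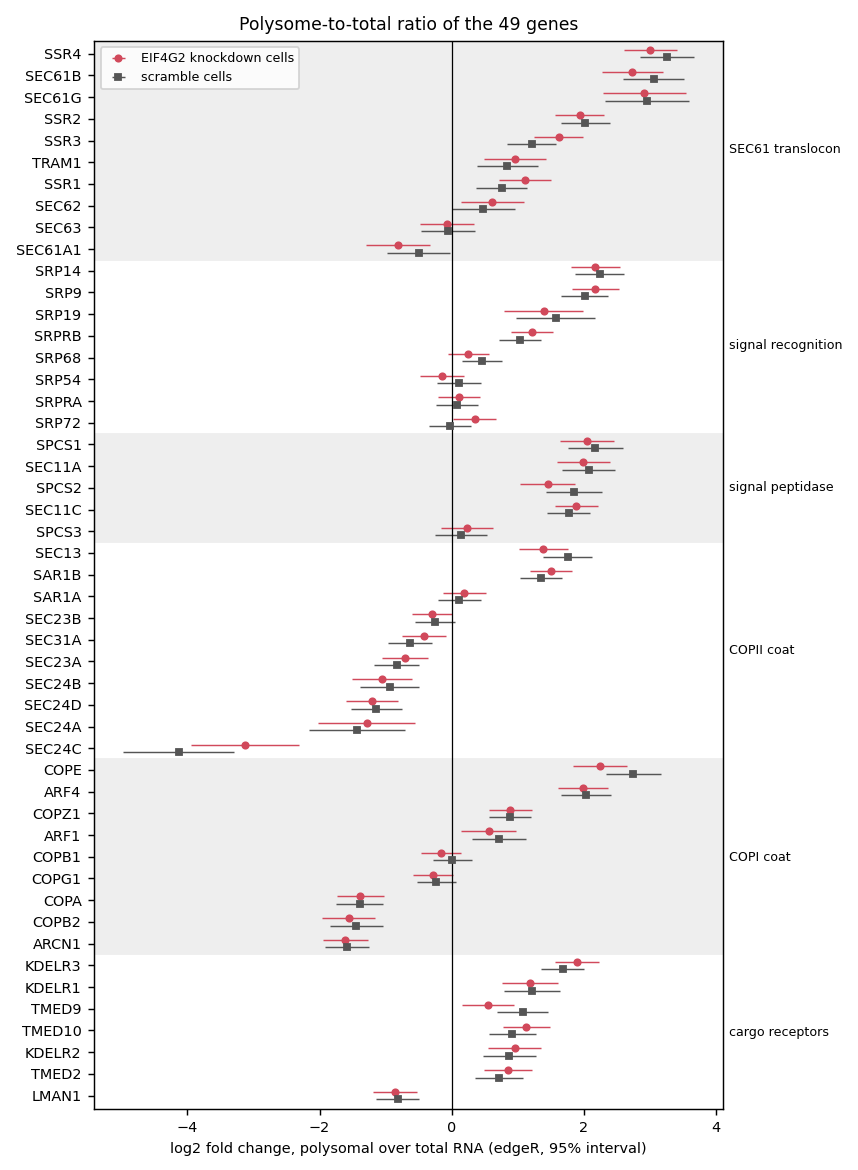
The x axis gives the edgeR log2 fold change of polysomal over total RNA with its 95% interval for each of the 49 genes, grouped by role, in knockdown cells (circles) and scramble cells (squares), 2 libraries per group. SSR4, SEC61B and SEC61G lie furthest right, and SEC24C, at -3.13 in knockdown and -4.13 in scramble cells, lies furthest left.

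Within the translocon, the 2 small SEC61 subunits and the large one went opposite ways. Here 8 of 10 genes rose and 1 fell in knockdown cells, and 7 rose and none fell in scramble cells. SEC61B, the beta subunit, stood at 413 and 573 CPM in knockdown polysomes against 84.0 and 65.0 in knockdown total RNA, and 585 and 487 in scramble polysomes against 65.3 and 64.1 in scramble total RNA. SEC61G stood at 684 and 640.3 CPM in knockdown polysomes against 112 and 63.6 in knockdown total RNA, and 720.2 and 486 in scramble polysomes against 69.0 and 87.1 in scramble total RNA. In both, all polysome libraries lay above all total RNA libraries, and the log2 fold changes were 2.73 ± 0.21 in knockdown and 3.05 ± 0.21 in scramble cells for SEC61B and 2.91 ± 0.28 in knockdown and 2.95 ± 0.29 in scramble cells for SEC61G (± standard error, adjusted p = 7.88e-06 and 6.7e-06 for SEC61G, lower for SEC61B). SEC61A1, the alpha subunit that lines the channel, had 208 and 273 CPM in knockdown polysomes against 439 and 407 in knockdown total RNA, and 226 and 359.5 in scramble polysomes against 419.6 and 411 in scramble total RNA. All polysome libraries lay below all total RNA libraries. The log2 fold change was -0.81 ± 0.22 in knockdown cells (adjusted p = 0.00752) and -0.50 ± 0.22 in scramble cells (adjusted p = 0.0626), so the fall passed in knockdown cells alone. The test of the difference between the cells gave -0.31 ± 0.31 (adjusted p = 0.892). DESeq2 called SEC61A1 lower in both kinds of cell.

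SSR1 to SSR4 encode the translocon-associated protein complex, which sits beside the channel and helps some signal peptides open it. SSR4, the delta subunit, had 650.3 and 730.0 CPM in knockdown polysomes against 97.9 and 74.2 in knockdown total RNA, and 694 and 627 in scramble polysomes against 68.7 and 69.6 in scramble total RNA, the largest rise of the 49 genes in both kinds of cell (3.0 ± 0.18 in knockdown and 3.26 ± 0.19 in scramble cells). SSR2, the beta subunit, had 610.2 and 565 CPM in knockdown polysomes against 173 and 135 in knockdown total RNA, and 489 and 551 in scramble polysomes against 128 and 128 in scramble total RNA. SSR3, the gamma subunit, had 1346 and 1439 CPM in knockdown polysomes against 491 and 418 in knockdown total RNA, and 1120.5 and 1061 in scramble polysomes against 457 and 489 in scramble total RNA. The polysome libraries of SSR2, SSR3 and SSR4 lay above all total RNA libraries. SSR2 and SSR3 also rose in both kinds of cell, with log2 fold changes of 1.93 ± 0.17 in knockdown and 2.02 ± 0.17 in scramble cells for SSR2 and 1.62 ± 0.17 in knockdown and 1.21 ± 0.17 in scramble cells for SSR3. SSR1, the alpha subunit with the longest reading frame of the 4, had 246 and 298 CPM in knockdown polysomes against 127 and 127 in knockdown total RNA, and 216 and 298 in scramble polysomes against 155 and 149.9 in scramble total RNA, a rise of 1.10 ± 0.18 in knockdown and 0.75 ± 0.18 in scramble cells. TRAM1, a membrane protein next to the channel, rose by 0.96 ± 0.21 in knockdown and 0.84 ± 0.21 in scramble cells. SEC62 and SEC63 help proteins enter after their synthesis is complete. SEC62 rose in knockdown cells (0.61 ± 0.22) and had 0.48 ± 0.22 in scramble cells (adjusted p = 0.0753), while SEC63 had -0.07 ± 0.19 in knockdown and -0.06 ± 0.19 in scramble cells and passed in neither. The SEC62 call was lost without either knockdown total RNA library or without knockdown polysome replicate 2 (0.21 to 0.59), and that of TRAM1 in scramble cells without scramble polysome replicate 2 (0.39). Exons of SSR4 and IDH3G overlap on opposite strands over as much as 278 nt, and without a stated strand setting reads from there cannot be assigned to one gene.

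In the signal recognition particle the ribosome-pausing pair rose most, and SRP54, which binds the signal peptide, did not pass the test. Of 8 genes, 4 rose in knockdown and 5 in scramble cells, and none fell. SRP14 had 786 and 812 CPM in knockdown polysomes against 197 and 158 in knockdown total RNA, and 776 and 723 in scramble polysomes against 159 and 159 in scramble total RNA. SRP9, its partner, had 943 and 984 CPM in knockdown polysomes against 231 and 197 in knockdown total RNA, and 839 and 781 in scramble polysomes against 200.2 and 203 in scramble total RNA. Both pairs of polysome libraries were far above their total RNA libraries, with log2 fold changes of 2.17 ± 0.17 in knockdown and 2.24 ± 0.17 in scramble cells for SRP14 and 2.17 ± 0.16 in knockdown and 2.01 ± 0.16 in scramble cells for SRP9. SRPRB, the membrane-anchored beta subunit of the receptor, had 129.6 and 124 CPM in knockdown polysomes against 59.9 and 49.7 in knockdown total RNA, and 106 and 111 in scramble polysomes against 52.4 and 53.7 in scramble total RNA, a rise of 1.21 ± 0.15 in knockdown and 1.03 ± 0.14 in scramble cells. Its partner SRPRA, the alpha subunit that meets the particle, had 0.10 ± 0.14 in knockdown and 0.08 ± 0.14 in scramble cells and did not pass. SRP19, which prepares the particle's RNA for SRP54, rose by 1.39 ± 0.27 in knockdown and 1.57 ± 0.27 in scramble cells, but shares exon sequence with the pseudogene ZRSR2P1 over as much as 1470 nt. SRP54, the GTPase that holds the signal peptide, had 53.3 and 57.8 CPM in knockdown polysomes against 64.6 and 58.8 in knockdown total RNA, and 76.8 and 62.6 in scramble polysomes against 62.5 and 67.0 in scramble total RNA. SRP72, which with SRP68 binds the particle's RNA, had 128 and 138 CPM in knockdown polysomes against 99.7 and 109.5 in knockdown total RNA, and 111 and 132 in scramble polysomes against 124 and 124 in scramble total RNA. The polysome libraries of SRP54 lay below and those of SRP72 above the total RNA libraries in knockdown cells, both overlapped them in scramble cells, and neither gene passed (-0.15 ± 0.15 in knockdown and 0.11 ± 0.15 in scramble cells for SRP54, 0.34 ± 0.15 in knockdown and -0.03 ± 0.15 in scramble cells for SRP72). SRP68 rose in scramble cells (0.45 ± 0.14, adjusted p = 0.0146) and had 0.25 ± 0.14 in knockdown cells (adjusted p = 0.137). Its call was lost without either scramble total RNA library or without scramble polysome replicate 2 (0.33 to 0.43).

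Signal peptidase cuts the signal off the growing chain through SEC11A or SEC11C, its alternative catalytic subunits. Of its 5 genes 4 rose in both kinds of cell and none fell. SEC11A had 478 and 505 CPM in knockdown polysomes against 145 and 103 in knockdown total RNA, and 446 and 474 in scramble polysomes against 109.6 and 109 in scramble total RNA. SEC11C had 108 and 119.8 CPM in knockdown polysomes against 33.3 and 28.5 in knockdown total RNA, and 87.2 and 83.5 in scramble polysomes against 24.9 and 25.4 in scramble total RNA. Both paralogs were higher in every polysome library, by 1.99 ± 0.18 in knockdown and 2.07 ± 0.18 in scramble cells for SEC11A and by 1.88 ± 0.15 in knockdown and 1.76 ± 0.15 in scramble cells for SEC11C. SPCS1, a small accessory subunit, had 252 and 324 CPM in knockdown polysomes against 79.8 and 59.7 in knockdown total RNA, and 269 and 288 in scramble polysomes against 60.6 and 63.2 in scramble total RNA, and SPCS2, another accessory subunit, had 165 and 211 CPM in knockdown polysomes against 76.0 and 61.5 in knockdown total RNA, and 203 and 266 in scramble polysomes against 62.4 and 67.7 in scramble total RNA. Their rises were 2.04 ± 0.18 in knockdown and 2.17 ± 0.19 in scramble cells for SPCS1 and 1.45 ± 0.19 in knockdown and 1.85 ± 0.19 in scramble cells for SPCS2. SPCS3, a further accessory subunit, had 0.22 ± 0.18 in knockdown and 0.14 ± 0.18 in scramble cells and did not pass, although its coding length of 540 nt is close to that of SEC11A (537 nt). SPCS1 shares as much as 2698 nt of exon with NEK4 on the other strand, and annotated pseudogene copies of SPCS2 held 6.55% as many counts as SPCS2 itself, so both values are uncertain to that extent.

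The COPII coat had the lowest median of the 6 role groups of these 49 genes, -0.57 in knockdown and -0.73 in scramble cells, but with a trend on coding length removed the median was 0.21 and 0.14. The coat assembles when the GTPase SAR1A or SAR1B recruits SEC23 and SEC24, of which SEC24 selects cargo, and SEC13 with SEC31A then builds the outer cage. Of its 10 genes 2 rose and 6 fell in each kind of cell. The 4 SEC24 paralogs all fell. SEC24C had 6.55 and 3.06 CPM in knockdown polysomes against 32.6 and 53.3 in knockdown total RNA, and 4.55 and 2.38 in scramble polysomes against 60.8 and 61.8 in scramble total RNA, a log2 fold change of -3.13 ± 0.37 in knockdown and -4.13 ± 0.38 in scramble cells. SEC24D had 36.3 and 38.9 CPM in knockdown polysomes against 79.2 and 95.1 in knockdown total RNA, and 54.9 and 39.9 in scramble polysomes against 106 and 103 in scramble total RNA. SEC24A, the least abundant of the 4 per length of transcript (TPM) in every total RNA library, had 16.5 and 11.2 CPM in knockdown polysomes against 30.0 and 38.1 in knockdown total RNA, and 21.5 and 9.27 in scramble polysomes against 42.5 and 40.8 in scramble total RNA. SEC24B had 16.5 and 14.2 CPM in knockdown polysomes against 31.0 and 33.1 in knockdown total RNA, and 21.8 and 15.0 in scramble polysomes against 34.2 and 36.5 in scramble total RNA. No polysome library reached a total RNA library of the same cells in any SEC24 gene, and the fold changes were -1.21 ± 0.18 in knockdown and -1.14 ± 0.18 in scramble cells for SEC24D, -1.29 ± 0.33 in knockdown and -1.44 ± 0.33 in scramble cells for SEC24A and -1.06 ± 0.20 in knockdown and -0.94 ± 0.20 in scramble cells for SEC24B. SEC24C rested on 36 to 97 counts in each polysome library, so its value has the widest interval of the set, and 1207 nt of its exons lie opposite another annotated transcript.

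SEC23A and SEC31A also fell, and SEC13 and SAR1B rose. SEC23A, which switches SAR1 off, had 87.1 and 88.6 CPM in knockdown polysomes against 133 and 154 in knockdown total RNA, and 107 and 85.2 in scramble polysomes against 176 and 166 in scramble total RNA, a fall with a log2 fold change of -0.71 ± 0.16 in knockdown and -0.83 ± 0.16 in scramble cells. Its paralog SEC23B had 42.2 and 39.8 CPM in knockdown polysomes against 51.4 and 49.5 in knockdown total RNA, and 49.5 and 52.2 in scramble polysomes against 60.7 and 60.4 in scramble total RNA and did not pass (-0.30 ± 0.14 in knockdown and -0.25 ± 0.14 in scramble cells). SEC31A had 93.4 and 101 CPM in knockdown polysomes against 117 and 144 in knockdown total RNA, and 109 and 119 in scramble polysomes against 175 and 177 in scramble total RNA, a fall with a log2 fold change of -0.43 ± 0.15 in knockdown and -0.63 ± 0.15 in scramble cells. Its cage partner SEC13 went the other way. SEC13 had 380.3 and 455 CPM in knockdown polysomes against 176 and 145 in knockdown total RNA, and 531 and 461 in scramble polysomes against 148 and 147 in scramble total RNA, a rise of 1.38 ± 0.17 in knockdown and 1.75 ± 0.17 in scramble cells. SAR1B had 162 and 171 CPM in knockdown polysomes against 60.6 and 57.4 in knockdown total RNA, and 138 and 159.9 in scramble polysomes against 57.9 and 59.2 in scramble total RNA, a rise of 1.5 ± 0.14 in knockdown and 1.35 ± 0.14 in scramble cells. SAR1A, with the same coding length of 594 nt, had 123 and 149 CPM in knockdown polysomes against 125.1 and 114 in knockdown total RNA, and 133 and 145 in scramble polysomes against 128 and 129 in scramble total RNA and did not pass (0.19 ± 0.15 in knockdown and 0.11 ± 0.15 in scramble cells). SAR1B and SEC24A start close together on opposite strands and share up to 385 nt of exon, yet SAR1B rose and SEC24A fell. In knockdown cells the call of SEC24A was lost without knockdown total RNA replicate 2 (-1.14). That of SEC31A was lost without the same library, without either scramble total RNA library or without knockdown polysome replicate 1 (-0.47 to -0.30).

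The COPI coat was split in the same way. Its 7 coatomer subunits bind membranes as one preassembled complex once ARF1 is active. Together with ARF1 and ARF4, 4 of 9 genes rose and 3 fell in each kind of cell (44.4% and 33.3%). Of all tested genes, 28.9% rose and 34.1% fell in knockdown cells, and 29.7% and 33.7% in scramble cells. The share of COPI genes that fell is thus near that of all tested genes. COPE, the epsilon subunit, had 394 and 517 CPM in knockdown polysomes against 107 and 85.6 in knockdown total RNA, and 552 and 508 in scramble polysomes against 77.7 and 80.4 in scramble total RNA. COPZ1, the zeta subunit, had 219 and 232 CPM in knockdown polysomes against 133 and 111 in knockdown total RNA, and 194 and 212 in scramble polysomes against 110.5 and 110.4 in scramble total RNA. In COPE and COPZ1 all polysome libraries exceeded all total RNA libraries, with rises of 2.24 ± 0.18 in knockdown and 2.75 ± 0.19 in scramble cells for COPE and 0.88 ± 0.15 in knockdown and 0.88 ± 0.15 in scramble cells for COPZ1. With library totals in place of TMM, COPZ1 turned to -0.17 in knockdown and -0.12 in scramble cells. COPA, the alpha subunit, had 66.0 and 61.2 CPM in knockdown polysomes against 145 and 187 in knockdown total RNA, and 82.8 and 76.3 in scramble polysomes against 215 and 203 in scramble total RNA. COPB2, the beta-prime subunit that pairs with COPA, had 65.8 and 55.0 CPM in knockdown polysomes against 182 and 176 in knockdown total RNA, and 87.6 and 62.4 in scramble polysomes against 209 and 199 in scramble total RNA. ARCN1, the delta subunit, had 53.5 and 45.7 CPM in knockdown polysomes against 143 and 160.3 in knockdown total RNA, and 63.7 and 56.9 in scramble polysomes against 184 and 177 in scramble total RNA. In these subunits all polysome libraries lay below all total RNA libraries, with log2 fold changes of -1.39 ± 0.16 in knockdown and -1.4 ± 0.16 in scramble cells for COPA, -1.56 ± 0.18 in knockdown and -1.44 ± 0.18 in scramble cells for COPB2 and -1.61 ± 0.15 in knockdown and -1.58 ± 0.15 in scramble cells for ARCN1. COPB1, the beta subunit, had 124 and 110.2 CPM in knockdown polysomes against 127 and 135 in knockdown total RNA, and 156 and 150.4 in scramble polysomes against 152 and 152 in scramble total RNA, and its libraries overlapped between fractions in scramble cells (-0.16 ± 0.14 in knockdown and 0.01 ± 0.14 in scramble cells, not passing). COPG1, the gamma subunit, had -0.28 ± 0.14 in knockdown and -0.23 ± 0.14 in scramble cells and did not pass either. The GTPases rose by unlike amounts. ARF4 had 865 and 952 CPM in knockdown polysomes against 249.7 and 208 in knockdown total RNA, and 863 and 979 in scramble polysomes against 222 and 229.6 in scramble total RNA, and ARF1 had 628 and 665 CPM in knockdown polysomes against 481 and 399 in knockdown total RNA, and 547 and 748 in scramble polysomes against 388 and 401 in scramble total RNA, which gave 1.99 ± 0.17 in knockdown and 2.03 ± 0.17 in scramble cells for ARF4 and 0.55 ± 0.19 in knockdown and 0.72 ± 0.19 in scramble cells for ARF1. The ARF1 call in knockdown cells was lost without knockdown total RNA replicate 2, without either scramble total RNA library or without either knockdown polysome library (0.39 to 0.52). In scramble cells it was lost without either scramble total RNA library or without scramble polysome replicate 2 (0.41 to 0.71).

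Among the cargo receptors 6 of 7 rose and 1 fell in both kinds of cell. The KDEL receptors return chaperones with a KDEL tail from the Golgi. KDELR1 had 488 and 456 CPM in knockdown polysomes against 234 and 181 in knockdown total RNA, and 348 and 482 in scramble polysomes against 177 and 180.2 in scramble total RNA. KDELR2 had 493 and 545 CPM in knockdown polysomes against 293 and 246 in knockdown total RNA, and 425 and 566 in scramble polysomes against 269 and 273 in scramble total RNA. KDELR3 had 98.4 and 107 CPM in knockdown polysomes against 29.2 and 26.2 in knockdown total RNA, and 105 and 121 in scramble polysomes against 35.4 and 35.2 in scramble total RNA. In all 3 the polysome libraries lay above the total RNA libraries, and the rises were 1.18 ± 0.19 in knockdown and 1.22 ± 0.19 in scramble cells for KDELR1, 0.95 ± 0.18 in knockdown and 0.87 ± 0.18 in scramble cells for KDELR2 and 1.89 ± 0.15 in knockdown and 1.68 ± 0.15 in scramble cells for KDELR3. TMED2, TMED9 and TMED10 are p24 proteins, which line both kinds of vesicle. TMED9 had 358 and 456 CPM in knockdown polysomes against 312 and 246 in knockdown total RNA, and 545 and 539.7 in scramble polysomes against 256 and 261 in scramble total RNA, a rise of 0.55 ± 0.18 in knockdown and 1.07 ± 0.18 in scramble cells. TMED10 had 372 and 423 CPM in knockdown polysomes against 189 and 175 in knockdown total RNA, and 309 and 396 in scramble polysomes against 184 and 189.7 in scramble total RNA, a rise of 1.13 ± 0.16 in knockdown and 0.91 ± 0.16 in scramble cells. TMED2 rose by 0.85 ± 0.16 in knockdown and 0.72 ± 0.16 in scramble cells. LMAN1, the lectin that carries coagulation factors out of the ER, was the 1 receptor that fell. It had 67.9 and 80.0 CPM in knockdown polysomes against 124 and 144 in knockdown total RNA, and 92.2 and 94.5 in scramble polysomes against 169 and 161 in scramble total RNA, a fall with a log2 fold change of -0.86 ± 0.15 in knockdown and -0.82 ± 0.15 in scramble cells. With a trend on transcript length removed, LMAN1 stood at 0.05 in knockdown and 0.14 in scramble cells, TMED9 at -0.65 in knockdown and -0.26 in scramble cells, and KDELR1 at 0.07 in knockdown and -0.02 in scramble cells. The TMED9 call in knockdown cells was lost without knockdown total RNA replicate 2, without either scramble total RNA library or without knockdown polysome replicate 2 (0.24 to 0.52).

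The ratio of counts of 2 genes within a library needs no scaling between libraries. A difference between fractions that goes with gene length does not cancel in it, and pairs such as SEC61B (288 nt of coding length) and SEC61A1 (1428 nt) differ widely in length. Of 20 pairs within a complex or a family, the ranges of polysome and total RNA libraries were apart in 17 and overlapped in 3. The pairs were named by hand, and the share among other gene pairs was not counted, so the 17 cannot be read as particular to these pairs. Single genes often lay apart too. In scramble cells both polysome libraries were above both total RNA libraries in 38.8% of all tested genes and below them in 46.1%. That sets fewer libraries against each other than the pair ranges do. SEC61B over SEC61A1 was 1.35 to 2.59 in polysome libraries, against 0.156 to 0.191 in total RNA libraries. COPE over COPA was 5.96 to 8.44 in polysome libraries, against 0.361 to 0.733 in total RNA libraries. SEC13 over SEC31A was 3.87 to 4.88 in polysome libraries, against 0.826 to 1.5 in total RNA libraries. None of these ranges overlapped between fractions. SRP14 over SRP72 was 5.47 to 7.0 in polysome libraries, against 1.28 to 1.97 in total RNA libraries, SPCS1 over SPCS3 was 1.52 to 1.79 in polysome libraries, against 0.381 to 0.50 in total RNA libraries, and COPZ1 over ARCN1 was 3.05 to 5.07 in polysome libraries, against 0.599 to 0.932 in total RNA libraries. Among paralogs of near-equal coding length, SAR1B over SAR1A was 1.04 to 1.32 in polysome libraries, against 0.454 to 0.505 in total RNA libraries, and ARF4 over ARF1 was 1.31 to 1.58 in polysome libraries, against 0.519 to 0.573 in total RNA libraries. These ranges were apart too. The 3 pairs with overlapping ranges followed. SEC11C over SEC11A was 0.176 to 0.237 in polysome libraries, against 0.227 to 0.277 in total RNA libraries. SSR3 over SSR1 was 3.56 to 5.47 in polysome libraries, against 2.96 to 3.87 in total RNA libraries, and TMED9 over TMED10 was 0.962 to 1.76 in polysome libraries, against 1.38 to 1.65 in total RNA libraries.

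**Figure D2:**
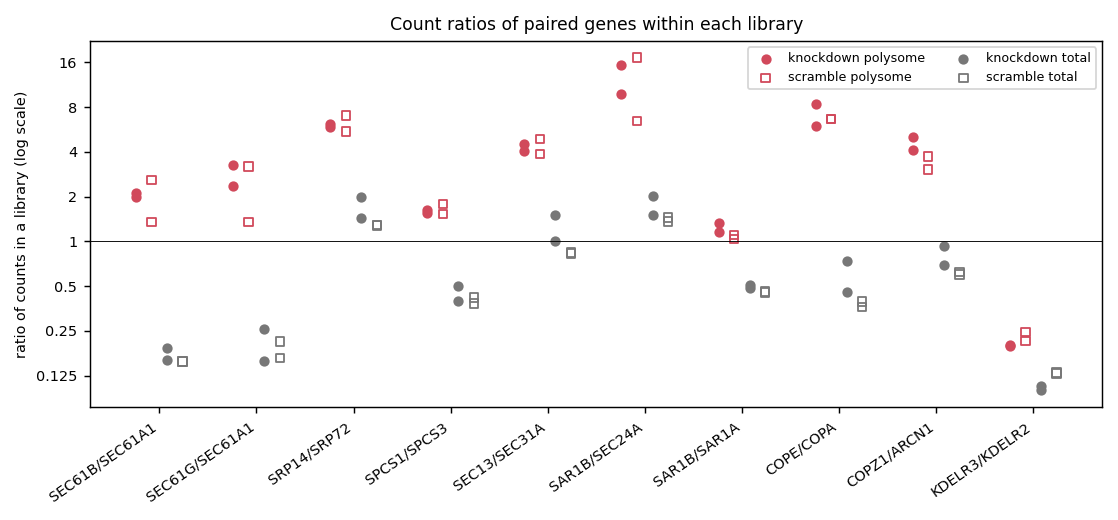
The y axis (log scale) gives the ratio of the counts of 2 genes within 1 library, with 1 point for each of the 8 libraries, marked by hairpin and fraction. COPE over COPA lies between 5.96 and 8.44 in polysome libraries and between 0.361 and 0.733 in total RNA libraries.

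Coding length went along with the split. Genes that rose in knockdown cells had coding lengths of 204 to 1197 nt (median 585 nt), and genes that fell had 1428 to 3699 nt (median 3096 nt). In scramble cells the lengths were 204 to 1881 nt (median 585 nt) for genes that rose and 1530 to 3699 nt (median 3187.5 nt) for genes that fell. Of the 24 genes of up to 750 nt, 22 rose and none fell in each kind of cell, and of the 6 genes over 3000 nt all 6 fell. The tested genes at large had the same direction: up to 750 nt, 65.3% rose in knockdown and 66.5% in scramble cells, and over 3000 nt, 81.0% fell in knockdown and 83.0% in scramble cells. Across the 49 genes the Pearson correlation of the log2 fold change with log2 coding length was -0.85 in knockdown and -0.82 in scramble cells, and across the 12691 tested genes with a coding length it was -0.51 and -0.56. Genes are not independent replicates, and these correlations are descriptions over libraries that also differed in median transcript length. With a trend on coding length removed from each library, an alternative chosen after the data had been seen, 25 of the 49 rose and 10 fell in knockdown cells and 21 rose and 9 fell in scramble cells, and the median was 0.42 and 0.23. Of the earlier calls 21 of 39 in knockdown and 17 of 38 in scramble cells were made again in the same direction. On that scale 18 genes in knockdown and 17 in scramble cells changed sign, 12 and 11 of them called on the TMM scale. Among the long coat subunits, COPA (0.12 in knockdown and 0.14 in scramble cells), SEC24B (0.44 in knockdown and 0.59 in scramble cells), SEC24D (0.03 in knockdown and 0.11 in scramble cells), and SEC31A (1.08 in knockdown and 0.91 in scramble cells) stood above 0. Among short genes, ARF1 (-0.66 in knockdown and -0.57 in scramble cells), COPZ1 (-0.36 in knockdown and -0.44 in scramble cells), KDELR2 (-0.09 in knockdown and -0.22 in scramble cells), and TMED2 (-0.26 in knockdown and -0.45 in scramble cells) stood below 0. Of 10 COPII genes, 2 lay below 0 in knockdown and 4 in scramble cells, against 7 in each on the TMM scale. On the TMM scale SPCS3 and SAR1A were the 2 genes of up to 750 nt that did not pass in either kind of cell.

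**Figure D3:**
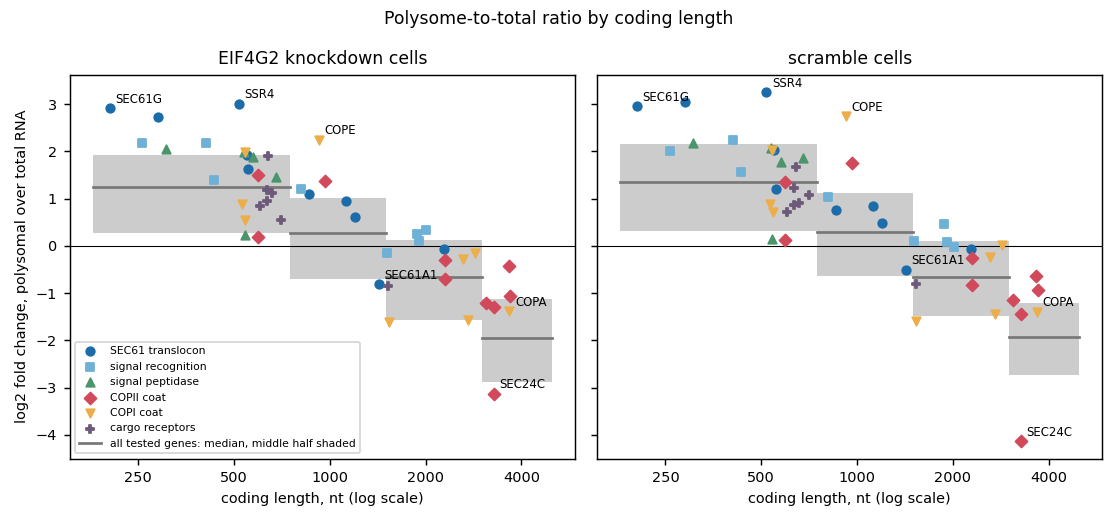
The x axis (log scale) gives coding length in nt and the y axis the log2 fold change of polysomal over total RNA, with knockdown cells on the left and scramble cells on the right and the 49 genes coloured by role. The points run from SEC61G at 204 nt, near 2.9 in both panels, down to the SEC24 genes and COPA over 3000 nt, all below 0.

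The second comparison asked whether loss of EIF4G2 moved these mRNAs. None of the 49 passed the threshold in polysomal RNA, in total RNA or in the ratio of the 2, by edgeR or by DESeq2. Among all tested genes edgeR called 0.00616% higher and 0.00616% lower in polysomal RNA and 0% in either direction in total RNA and in the ratio. DESeq2 shares are over the genes that it gave an adjusted p, 14025 in polysomal RNA, 10879 in total RNA and 16228 in the ratio. They were 0.67% higher and 0.955% lower in polysomal RNA and 0.175% higher and 0.0643% lower in total RNA. In the ratio DESeq2 called 0.00616% higher and 0.0185% lower. At an unadjusted p under 0.05, edgeR gave 1 higher and 4 lower of the 49 in polysomal RNA, against 5.37% and 7.89% of all tested genes. In total RNA it gave none higher and 2 lower, against 2.66% and 1.02%, and in the ratio none, against 1.95% higher and 4.33% lower. The median log2 fold change of the 49 was -0.03 in polysomal RNA, 0.01 in total RNA and -0.03 in the ratio, beside -0.01, 0.02 and -0.07 over all tested genes. The 95% intervals lay within 1 log2 unit of 0 for 48 genes in polysomal RNA, 48 in total RNA and 44 in the ratio, so smaller differences are not resolved with 2 libraries per group. A larger difference can go uncalled too. EIF4G2 itself, at -1.35 ± 0.18 in total RNA, did not pass by edgeR (adjusted p = 0.0504). In such bulk RNA, fewer cells with an mRNA and less of it per cell cannot be told apart, and effects of the hairpin other than on EIF4G2 cannot be told apart from it.

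**Figure D4:**
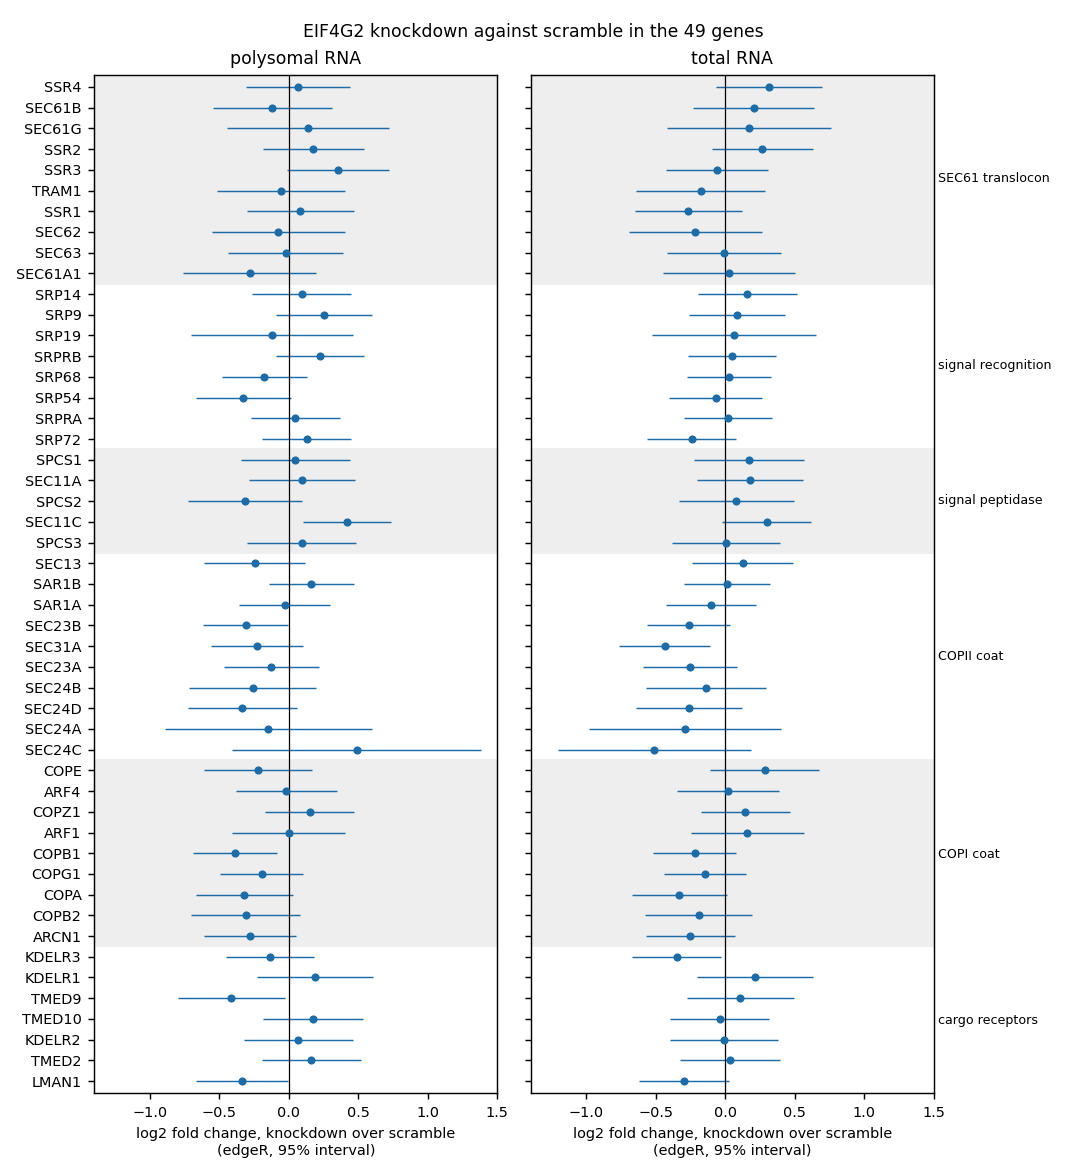
Each point is the edgeR log2 fold change of knockdown over scramble cells for 1 of the 49 genes with its 95% interval, in polysomal RNA and in total RNA. Intervals cross 0 for all but the few genes with an unadjusted p under 0.05, and SEC24C has the widest interval in both fractions.

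In polysomal RNA the 1 higher gene of those 5 was SEC11C, a catalytic subunit of signal peptidase. SEC11C had 108 and 119.8 CPM in knockdown polysomes, against 87.2 and 83.5 CPM in scramble polysomes, a log2 fold change of 0.42 ± 0.14 (adjusted p = 0.274). COPB1 had 124 and 110.2 CPM in knockdown polysomes, against 156 and 150.4 CPM in scramble polysomes, a log2 fold change of -0.39 ± 0.14 (adjusted p = 0.276). TMED9 had 358 and 456 CPM in knockdown polysomes, against 545 and 539.7 CPM in scramble polysomes, a log2 fold change of -0.41 ± 0.18 (adjusted p = 0.348). LMAN1 gave -0.34 ± 0.15 and SEC23B -0.31 ± 0.14 (adjusted p = 0.364 and 0.369). In each of these 5 genes the 2 libraries of one hairpin lay wholly to one side of the other 2. That was also so in 15.5% of all tested genes with knockdown higher and in 18.5% with knockdown lower. The next smallest p-values of each role group belonged to SSR3 (0.35 ± 0.17) and SEC61A1 (-0.28 ± 0.22) in the translocon, SRP54 (-0.33 ± 0.15) and SRP9 (0.25 ± 0.16) in signal recognition, SPCS2 (-0.32 ± 0.19) in signal peptidase, SEC24D (-0.34 ± 0.18) in COPII and COPA (-0.32 ± 0.16) in COPI, with adjusted p from 0.394 to 0.612. None of these passed, and SEC61A1 stood at 0.02 without scramble polysome replicate 2.

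In total RNA the smallest p-values were those of SEC31A and KDELR3. SEC31A had 117 and 144 CPM in knockdown total RNA, against 175 and 177 CPM in scramble total RNA, a log2 fold change of -0.44 ± 0.15 (unadjusted p = 0.0138, edgeR adjusted p = 1). KDELR3 had 29.2 and 26.2 CPM in knockdown total RNA, against 35.4 and 35.2 CPM in scramble total RNA, a log2 fold change of -0.35 ± 0.15 (unadjusted p = 0.035, edgeR adjusted p = 1). The 2 knockdown libraries were below both scramble libraries in each gene, as in 23.1% of all tested genes. The 2 knockdown libraries of SEC31A differed from each other by more than the scramble libraries did. Values further down were COPA (-0.33 ± 0.16) and ARCN1 (-0.25 ± 0.15) in COPI, LMAN1 (-0.30 ± 0.15) among the receptors, SEC23B (-0.26 ± 0.14) in COPII and SRP72 (-0.24 ± 0.14) in signal recognition. Above 0 stood SSR4 (0.32 ± 0.17), SSR2 (0.27 ± 0.16), SEC11C (0.30 ± 0.15), SEC11A (0.18 ± 0.17) and SRP14 (0.16 ± 0.16). The edgeR adjusted p of each was 1. SEC11A (-0.09) and SRP14 (-0.01) lay below 0 without knockdown total RNA replicate 1.

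In the ratio of polysomal to total RNA, a common measure of translational efficiency, the smallest p belonged to TMED9, at -0.52 ± 0.25 (95% interval -1.07 to 0.02, adjusted p = 0.776). Its libraries above show this as a smaller excess in polysomes in knockdown than in scramble cells. COPE had -0.50 ± 0.25 (interval -1.05 to 0.04), SEC24C 1.00 ± 0.51 (interval -0.14 to 2.13), SSR3 0.41 ± 0.23, SPCS2 -0.40 ± 0.26, SRP72 0.37 ± 0.21, SEC13 -0.37 ± 0.23, SSR1 0.35 ± 0.25, SRP54 -0.26 ± 0.22, KDELR3 0.22 ± 0.20, COPB1 -0.17 ± 0.19 and SEC11C 0.12 ± 0.20. Adjusted p-values of these 12 genes ran from 0.776 to 0.961.

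Within role groups the signs were uneven, and they moved with single libraries. In total RNA, 8 of 10 COPII genes lay below 0 (median -0.26), as did 47.1% of all tested genes. In 8 of the 10 both knockdown libraries lay under both scramble libraries, as in 19 of the 49 and 23.1% of all tested genes. In polysomal RNA, 8 of 10 COPII genes lay below 0 (median -0.19), as did 51.4% of all tested genes, with 45.9% above 0 and the rest at 0. There 4 of the 10 were lower without overlap, as were 12 of the 49 and 18.5% of all tested genes. Both knockdown libraries lay above both scramble libraries in 9 of the 49 in polysomal RNA (15.5% of all tested genes) and in 6 in total RNA (24.8%). COPI had 8 of 9 genes below 0 in polysomal RNA (median -0.22) and 5 of 9 in total RNA (median -0.15). Without scramble polysome replicate 1, the library with the low mitochondrial share, the polysomal COPII median was -0.05 with 5 of 10 below 0. Without knockdown total RNA replicate 1, the library on shorter transcripts, the COPII median in total RNA was -0.15 with 10 of 10 below 0. All 5 signal peptidase genes lay above 0 in total RNA (median 0.17), as did 52.8% of all tested genes, but 1 of 5 did without that library (median -0.05).

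**Figure D5:**
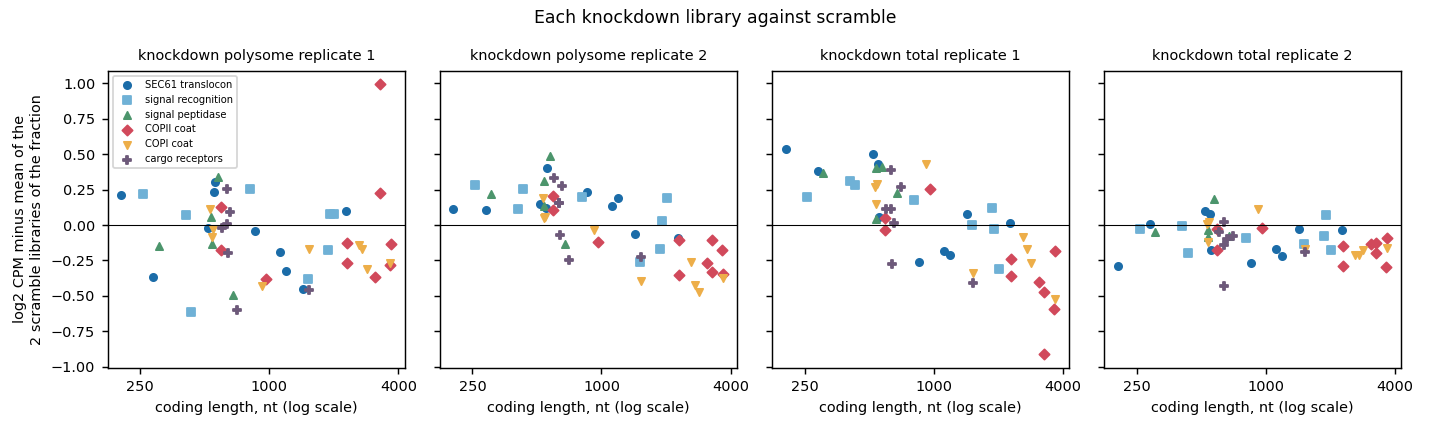
The y axis gives log2 CPM of a gene in 1 knockdown library minus the mean of the 2 scramble libraries of the same fraction, and the x axis (log scale) gives coding length in nt, with 1 panel for each of the 4 knockdown libraries. The slope is steep in knockdown total RNA replicate 1 (r = -0.79) and polysome replicate 2 (r = -0.74) and shallow in total RNA replicate 2 (r = -0.31) and polysome replicate 1 (r = -0.095).

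The 2 knockdown libraries of a fraction did not repeat each other's length slope. Set against the mean of the scramble libraries, total RNA replicate 1 had 21 of the 49 genes below 0 and replicate 2 had 40, and polysome replicate 1 had 31 and replicate 2 had 22. The log2 difference per doubling of coding length was -0.22 in total RNA replicate 1 and -0.032 in replicate 2. Summed markers of other cells were compared as well. Epithelial markers (6 genes, nearly all of it KRT8 and KRT18) had 2238 and 2271 CPM in knockdown polysomes, against 3132 and 3204 CPM in scramble polysomes, and overlapped in total RNA, at 1166 and 1424 CPM in knockdown and 1366 and 1395 CPM in scramble cells. EPCAM stood at 0.363 to 2.38 CPM and CDH1 at 0 to 0.165 CPM across all libraries. Mural markers had 77.8 and 94.9 CPM in knockdown polysomes, against 107 and 143 CPM in scramble polysomes, and 385 and 443 CPM in knockdown total RNA, against 462 and 479 CPM in scramble total RNA. MCAM made up most of the polysomal sum, at 50.8 and 65.6 CPM in knockdown and 78.5 and 120 CPM in scramble cells. RGS5 went the other way in polysomes, at 21.1 and 24.1 CPM in knockdown and 15.6 and 14.9 CPM in scramble cells. Cardiomyocyte markers had 3.31 and 10.5 CPM in knockdown polysomes, against 23.4 and 24.7 CPM in scramble polysomes, and 1.26 and 1.48 CPM in knockdown total RNA, against 1.27 and 1.47 CPM in scramble total RNA. Most of the polysomal sum was NPPB, at 2.50 and 8.83 CPM in knockdown and 16.6 and 20.7 CPM in scramble cells, and MYH6 and MYH7 were at 0 in all libraries. The part of these markers in the values of the 49 genes was not tested.

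Neighbouring steps of the pathway, 102 other genes in 9 lists of which 100 were tested, were called in the fraction comparison at 52 higher and 28 lower in knockdown cells and 51 higher and 27 lower in scramble cells. Of all tested genes, 28.9% were called higher and 34.1% lower in knockdown cells, and 29.7% and 33.7% in scramble cells. Those shares are the background for each list that follows, and some lists lie near them. How far these calls depend on TMM or on coding length was not examined. The oligosaccharyltransferase, which adds sugars at the translocon, had 7 higher and 2 lower of 12 in each kind of cell. Its small subunit TMEM258 rose by 3.24 ± 0.24 in knockdown and 3.41 ± 0.24 in scramble cells, and KRTCAP2 fell, with -2.03 ± 0.40 in knockdown and -2.50 ± 0.42 in scramble cells. KRTCAP2 had low levels, at 0.535 to 1.53 CPM in polysome libraries and 3.47 to 5.78 CPM in total RNA libraries. The ER membrane complex, an insertase for membrane proteins, had 9 higher and 1 lower of 10 in knockdown and 8 higher and 1 lower in scramble cells. EMC7 rose by 2.43 ± 0.19 in knockdown and 2.63 ± 0.20 in scramble cells and EMC1, its largest subunit, fell, with -1.32 ± 0.14 in knockdown and -0.83 ± 0.13 in scramble cells. Of 7 genes for tail-anchored proteins, 3 rose in knockdown and 5 in scramble cells and none fell, with GET3, the targeting ATPase, at 1.72 ± 0.16 in knockdown and 1.95 ± 0.16 in scramble cells. A list of 9 held multipass translocon genes together with SEC61A2 and TRAM2, paralogs of SEC61A1 and TRAM1. Of these 9, 3 rose and 4 fell in knockdown cells and 2 rose and 3 fell in scramble cells. TMEM147, of the multipass translocon, rose (2.06 ± 0.17 in knockdown and 2.2 ± 0.17 in scramble cells). TRAM2 fell (-3.35 ± 0.17 in knockdown and -3.0 ± 0.17 in scramble cells).

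Of 8 tested genes for COPII assembly, 2 rose and 4 fell in knockdown cells and 1 rose and 4 fell in scramble cells. SEC16A, the scaffold of ER exit sites, fell, with -3.52 ± 0.27 in knockdown and -3.46 ± 0.27 in scramble cells, and TFG, which organises those sites, rose by 0.91 ± 0.14 in knockdown and 0.86 ± 0.14 in scramble cells. Of 9 COPI assembly genes 3 rose and 5 fell in each kind of cell, with ARF5 rising by 1.78 ± 0.17 in knockdown and 1.84 ± 0.17 in scramble cells and GBF1, the exchange factor that activates ARF1, falling, at -2.44 ± 0.16 in knockdown and -2.31 ± 0.16 in scramble cells. Other cargo receptors had 10 higher and 3 lower of 15 in both, led by CNIH4 (2.44 ± 0.15 in knockdown and 2.38 ± 0.15 in scramble cells). MCFD2, the partner of LMAN1, and the receptor SURF4 fell, at -0.40 ± 0.15 in knockdown and -0.78 ± 0.15 in scramble cells for MCFD2 and -0.60 ± 0.19 in knockdown and -0.48 ± 0.19 in scramble cells for SURF4. ER to Golgi tethers and SNAREs had 9 higher and 4 lower of 15 in knockdown and 9 higher and 5 lower in scramble cells. The fusion factor USE1 rose by 1.95 ± 0.19 in knockdown and 1.80 ± 0.19 in scramble cells, BET1 by 1.73 ± 0.18 in knockdown and 1.76 ± 0.18 in scramble cells, and the tether GOLGA2 fell, with -3.11 ± 0.24 in knockdown and -2.91 ± 0.24 in scramble cells. ER chaperones had 6 higher and 5 lower of 15 in knockdown and 6 higher and 4 lower in scramble cells. HERPUD1, of ER-associated degradation, rose by 1.48 ± 0.16 in knockdown and 1.41 ± 0.16 in scramble cells, MANF by 1.52 ± 0.18 in knockdown and 1.88 ± 0.19 in scramble cells, and HYOU1, a large chaperone, fell, with -3.26 ± 0.15 in knockdown and -3.31 ± 0.15 in scramble cells.

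Between knockdown and scramble cells, edgeR called none of these 100 genes in either fraction or in the ratio. DESeq2 called 5 in polysomal RNA (2 higher, 3 lower) and 1, higher, in total RNA. Among all genes with a DESeq2 adjusted p, the shares were 0.67% higher and 0.955% lower in polysomal RNA and 0.175% higher and 0.0643% lower in total RNA. TMED4, a p24 receptor like TMED9, had 94.9 and 101 CPM in knockdown polysomes, against 58.1 and 67.5 CPM in scramble polysomes, and 74.6 and 67.2 CPM in knockdown total RNA, against 45.6 and 44.8 CPM in scramble total RNA. PREB, the exchange factor that loads SAR1 with GTP, had 119.6 and 128 CPM in knockdown polysomes, against 75.2 and 87.6 CPM in scramble polysomes. All knockdown libraries of both genes lay above the scramble libraries of that fraction. The same held for 15.5% of all tested genes in polysomal RNA and 24.8% in total RNA. The edgeR log2 fold change of TMED4 was 0.64 ± 0.14 in polysomal RNA (edgeR adjusted p = 0.164, DESeq2 adjusted p = 0.00869) and 0.65 ± 0.14 in total RNA (edgeR adjusted p = 0.647, DESeq2 adjusted p = 0.0256). That of PREB was 0.61 ± 0.14 in polysomal RNA (edgeR adjusted p = 0.172, DESeq2 adjusted p = 0.00981). The 3 genes that DESeq2 called lower in polysomal RNA were BAG6 (-2.97 ± 0.66), a holdase for tail-anchored proteins, the chaperone CANX (-0.58 ± 0.18) and EMC1 (-0.53 ± 0.14), with edgeR adjusted p of 0.164, 0.234 and 0.182. The BAG6 value rests on low levels. BAG6 had 0.608 and 1.95 CPM in knockdown polysomes, against 10.5 and 9.09 CPM in scramble polysomes. In total RNA it had 0.956 to 3.03 CPM, and the 2 kinds of cell overlapped.

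Promoters were read for a shared feature that the choice of genes did not use. Of the 49 genes, 42 had an entry in the RefSeq promoter table (GRCh38.p14, 250 bases before to 50 after the start of the gene). The core of the unfolded protein response element, TGACGTGG, which XBP1 and ATF6 are known to bind under ER stress, was searched on both strands. It was found in 9 of the 42 (21.4%), against 217 of 27305 promoters in the table (0.795%). The longer elements ERSE and ERSE-II were in none of the 42 and in 0.0806% and 0.0549% of all. The 9 were the COPI genes COPA, COPB1, COPB2 and ARF1, the COPII genes SEC23A and SEC24A, and SEC62, SRP19 and KDELR3. Shown here are the promoters of the 2 COPII genes, of 1 COPI gene and of the 1 cargo receptor with a match, as examples from each step of transport, with the match in capitals. A match on the opposite strand reads CCACGTCA.
SEC24A (chr5:134648535-134648834, plus strand): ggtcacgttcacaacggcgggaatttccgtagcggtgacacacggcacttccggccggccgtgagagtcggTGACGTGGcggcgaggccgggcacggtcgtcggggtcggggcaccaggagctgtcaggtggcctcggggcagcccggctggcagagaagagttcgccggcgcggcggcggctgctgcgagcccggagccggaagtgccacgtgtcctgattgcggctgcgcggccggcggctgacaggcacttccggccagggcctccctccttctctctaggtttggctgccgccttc
SEC23A (chr14:39103186-39103485, minus strand): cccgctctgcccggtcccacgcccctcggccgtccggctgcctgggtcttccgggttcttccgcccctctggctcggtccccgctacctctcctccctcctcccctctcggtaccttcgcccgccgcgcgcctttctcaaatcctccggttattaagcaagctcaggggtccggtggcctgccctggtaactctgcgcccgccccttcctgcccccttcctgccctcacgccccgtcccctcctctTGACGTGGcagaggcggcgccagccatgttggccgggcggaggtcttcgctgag
COPA (chr1:160343201-160343500, minus strand): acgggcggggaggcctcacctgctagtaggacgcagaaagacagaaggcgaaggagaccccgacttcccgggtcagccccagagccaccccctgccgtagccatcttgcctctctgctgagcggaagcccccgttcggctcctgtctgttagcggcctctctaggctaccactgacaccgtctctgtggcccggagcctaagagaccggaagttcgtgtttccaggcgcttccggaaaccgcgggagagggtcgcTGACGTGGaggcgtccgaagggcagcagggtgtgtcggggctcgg
KDELR3 (chr22:38467846-38468145, plus strand): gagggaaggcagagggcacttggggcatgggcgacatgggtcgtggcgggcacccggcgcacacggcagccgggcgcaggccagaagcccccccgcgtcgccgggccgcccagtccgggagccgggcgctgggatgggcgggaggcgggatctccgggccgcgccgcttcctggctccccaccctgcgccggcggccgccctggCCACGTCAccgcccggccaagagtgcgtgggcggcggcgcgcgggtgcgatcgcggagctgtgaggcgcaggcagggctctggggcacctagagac
Counted from the start of the gene, the first base of the match lies at -179 in SEC24A, -4 in SEC23A, 6 in COPA and -46 in KDELR3. The 9 genes with the match had a median knockdown log2 fold change of -0.13 in polysomal RNA (9 of 9 below 0) and -0.22 in total RNA (7 of 9 below 0). The 33 genes without it had 0.08 (15 of 33 below 0) and 0.02 (14 of 33 below 0). The 2 sets also differed in coding length, with medians of 2295 nt with the match and 678 nt without, and the part of either feature in these values was not tested.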

How the data were processed

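Total and polysomal RNA of knockdown and scramble cells gave 8 libraries, grouped by their labels, 2 per group, fewer than the design text of the series mentions. The values are raw counts per gene symbol that the authors deposited as whole numbers. RNA was DNase-treated and enriched for polyadenylated RNA, per the labels' protocols and design text. Per the submitters' processing notes, the tools included HISAT2 2.1.0 and featureCounts (Subread 2.0.1) on GRCh38, with bcl2fastq 2.19.0 and Trimmomatic 0.36 listed too, in no stated order, and R 4.1.2 with DESeq2. Annotation, strand setting and handling of multiply matching reads are not given in the sources used here, so overlapping genes and near-identical copies share reads to an unknown extent. Because each library is scaled, a polysomal level is relative to other mRNAs and is not an amount per cell.

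The filter filterByExpr over 4 groups left 16228 genes, which were scaled by TMM and fitted with edgeR 4.0.16 in R 4.3.3 (quasi-likelihood, robust, 4 group means over all 8 libraries, 4 residual degrees of freedom), with Benjamini-Hochberg adjustment over all tested genes and a threshold of 0.05. Standard errors are |log2 fold change| / sqrt(F), and intervals are 95%. DESeq2 1.42.0 was the alternative tool. Log2 CPM used a prior count of 2. TPM used principal transcript lengths of GENCODE v29 (GRCh38), which 14178 tested genes (87.4%) and all 49 described genes have, and coding length leaves out the stop codon. Same-numbered libraries were not paired: their deviations from the group means correlated at -0.092 to 0.026. The other alternatives were RLE factors, library totals, no filter on low counts, only the 4 libraries compared, each library left out, and trends on transcript or coding length removed, the last chosen after seeing the data. Values per library are given for called genes (up to 3 per direction and role group by p), the 2 smallest p-values per role group in each knockdown comparison, and paralogs. The genes, lists and rules were chosen with earlier results of these data known.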

Additional observations from a re-analysis of the deposited data

How the results depend on the processing

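No setting brought a knockdown call: the count stayed at 0 of 49 in polysomal RNA, in total RNA and in the ratio, also with each library left out. In the fraction comparison the count of calls stayed within 1.5 times of its value over all settings, at 34 to 41 in knockdown and 30 to 41 in scramble cells. That count adds both directions, so it does not show changes of sign. Without TMM, 7 called genes in knockdown and 8 in scramble cells changed sign, and 12 and 11 did with the coding length trend removed. With the replicate block the count was 39 and 39, against 39 and 38 without it. The replicate numbers are only numbers here, and the block changed 1 call, that of SEC61A1 in scramble cells (-0.532, adjusted p = 0.0401).

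The median over the 49 genes moved more. For polysomal against total RNA it was -0.216 in knockdown and -0.255 in scramble cells with library totals without TMM, 0.667 and 0.599 with no filter on low counts, 0.442 and 0.371 with the transcript length trend removed, and 0.419 and 0.231 with the coding length trend removed. Leaving out 1 library gave 0.532 to 0.903 in knockdown and 0.443 to 0.836 in scramble cells. For knockdown against scramble it was -0.130 in polysomal RNA without TMM and -0.0845 in total RNA with the coding length trend removed. Leaving out 1 library gave -0.203 to 0.0140 in polysomal RNA, -0.0986 to 0.0486 in total RNA and -0.0745 to 0.0813 in the ratio.

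The 134 single-gene results under alternatives take in all 49 genes in the fraction comparison. Of their 2132 values, 1906 kept their direction and call, 71 lost the call, 46 gained one and 109 changed sign. This pooled count is not even over settings, since 1009 of the 1906 came from leaving out 1 library. Of the 134 results, 78 kept both with the coding length trend removed, 86 without TMM and 98 with the transcript length trend removed. For polysomal against total RNA the sign changed with the coding length trend removed in knockdown and scramble cells in ARF1 (-0.662 and -0.571), COPA (0.124 and 0.136), COPG1 (0.671 and 0.746), COPZ1 (-0.356 and -0.441), KDELR2 (-0.0867 and -0.222), SAR1A (-0.936 and -1.07), SEC23B (0.443 and 0.506), SEC24B (0.445 and 0.586), SEC24D (0.0274 and 0.107), SEC31A (1.08 and 0.906), SEC63 (0.653 and 0.689), SPCS3 (-1.02 and -1.16) and TMED2 (-0.260 and -0.449), in knockdown cells alone in COPB1 (0.941), SEC23A (0.0352), SEC24A (0.0343), SRP19 (-0.0732) and TMED9 (-0.362), in scramble cells alone in SRP72 (0.510), SRP9 (-0.0605), SSR3 (-0.0675) and TMED10 (-0.138). With the transcript length trend removed it changed in knockdown and scramble cells in ARF1 (-0.167 and -0.0821), LMAN1 (0.0484 and 0.140), SEC63 (0.972 and 1.08) and TMED9 (-0.654 and -0.260), in knockdown cells alone in COPB1 (0.0795) and SEC31A (0.140), in scramble cells alone in COPZ1 (-0.0244), KDELR1 (-0.0208), SEC23B (0.0188), SRP54 (-0.404) and SRP72 (0.536). Without TMM it changed in knockdown and scramble cells in ARF1 (-0.503 and -0.293), COPZ1 (-0.172 and -0.123), KDELR2 (-0.111 and -0.137), SAR1A (-0.874 and -0.890), SEC62 (-0.454 and -0.534), SPCS3 (-0.842 and -0.871), SRP68 (-0.806 and -0.550), SRPRA (-0.955 and -0.929), TMED2 (-0.216 and -0.286) and TRAM1 (-0.108 and -0.175), in knockdown cells alone in SRP72 (-0.718) and TMED9 (-0.514), in scramble cells alone in COPB1 (-0.992), SRP54 (-0.887), SSR1 (-0.255) and TMED10 (-0.0919). With no filter on low counts it changed in knockdown and scramble cells in SRPRA (-0.0760 and -0.0760), in scramble cells alone in COPB1 (-0.140), SAR1A (-0.0373), SPCS3 (-0.0177) and SRP54 (-0.0353), and COPB1 in scramble cells changed with RLE factors (-0.0473) and DESeq2 (-0.0473). Leaving out 1 library changed the sign of no called gene and gave, for polysomal against total RNA in knockdown cells, -0.0834 to 0.229 for SAR1A, -0.142 to 0.333 for SPCS3 and -0.0155 to 0.124 for SRPRA, and in scramble cells -0.126 to -0.0199 for COPB1, -0.00836 to 0.0876 for SAR1A, -0.445 to 0.104 for SEC63, -0.0978 to 0.185 for SPCS3, -0.154 to 0.188 for SRP54 and -0.132 to 0.106 for SRPRA. It ended fraction calls of ARF1, SEC24A, SEC31A, SEC62 and TMED9 in knockdown cells and of ARF1, SRP68 and TRAM1 in scramble cells. For knockdown against scramble it gave -0.0893 to 0.402 for SEC11A and -0.00935 to 0.308 for SRP14 in total RNA, below 0 without knockdown replicate 1, -0.600 to 0.0228 for SEC61A1 in polysomal RNA, above 0 without scramble replicate 2, and -0.00017 to 0.234 for SEC11C in the ratio, below 0 without knockdown polysome replicate 2. The cause of these changes was not tested. With 1 library left out its group keeps a single library, assumed to vary like the other groups. SEC24A and SEC24C had the fewest counts in polysome libraries, which limits both most.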
